A study of Mus musculus with 9 samples.

Results

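Cytoplasmic ribosomal proteins are the protein part of the ribosome that makes proteins in the cytosol, and their genes were followed in the jejunum of mice 3 days after abdominal irradiation. A gene was taken when its mouse symbol was protein-coding and began with Rpl or Rps and a digit, or was Rpsa, Rplp0, Rplp1 or Rplp2, with pseudogenes, the Rps6k kinases and like genes left out. An FPKM (fragments per kilobase of exon, scaled to the reads of the library) of at least 1 in at least 3 of the 9 mice was also required. Of 31685 genes in the table, 79 met the rule on names and 78 passed the filter, 45 of the large (60S) subunit and 31 of the small (40S) subunit. The other two carry a matching symbol only: Rps19bp1 encodes a partner protein of Rps19, and Rps27rt is a copy of Rps27 without introns. Rpl24 was the candidate that did not pass, with 0.67 to 1.57 FPKM in the control mice and 0.34 to 0.89 in the irradiated mice, and Rps10 was the lowest that did, with 0.626 to 2.80 FPKM over all mice.

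All mice were wild-type C57BL/6J males of 6 to 8 weeks. The control group (3 mice) had no treatment, the TAI group (3 mice) received 12 Gy of X-rays to the abdomen in total abdominal irradiation and then PBS, and the TAI/IVIg group (3 mice) received the same irradiation and 500 mg/kg of IVIg, a pool of human immunoglobulin G, into a vein within the first hour and every 3 days. The values are 1 bulk library of jejunum a mouse, and FPKM is relative to the library. A lower level can thus be fewer cells that hold much of the RNA, less RNA per cell or more RNA of other genes. These cannot be told apart. The 10 genes of highest FPKM took 14.8% to 19.3% of all FPKM in control, 20.4% to 22.8% in TAI and 23.1% to 27.3% in TAI/IVIg. The tissue is labelled epithelial, yet smooth muscle markers summed to 482 to 621 FPKM in the control mice and stroma markers to 65.8 to 92.1, so other layers were in the samples.

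A ribosome holds 1 copy of nearly every ribosomal protein on its RNA scaffold, so cells keep the many messages in balance. These messages are short and abundant, and most begin with a run of pyrimidines, the 5′ terminal oligopyrimidine (TOP) motif, through which Larp1 and mTOR set their translation and stability. In the small intestine the dividing crypt cells are known for high ribosome production, and crypts are the part of the gut most sensitive to radiation.

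RefSeq start sites (GRCm38.p6) were found for 58 of the 78 genes. A run of 8 or more C or T bases on the transcribed strand, within 30 bases before or after a start, was present in 32 of the 58 (55.2%), against 25.8% of 27025 genes with a start in the same table and 25.9% of the tested genes with one. On the other strand the share was 12.1% for the ribosomal protein genes and 28.7% for all genes. The letters CCGGAAG and AAGATGGC were searched on both strands in 300 bases around the start. CCGGAAG was present in 41.4% (24 of 58) against 9.93% of all genes, and AAGATGGC in 8.62% (5 of 58) against 3.19%. Among the 9121 tested genes with a start, 1824 had CCGGAAG and 487 (5.34%) had AAGATGGC. Both contrasts were thus smaller against the tested genes than against all genes. The windows below are of the genes described later, with 15 bases before the start and 15 from it on, and their longest C or T run is in capitals; the run reached 8 bases in the first 6 and did not in Rps2, Rpsa and Rplp0.
Rpl14 (chr9:120571502-120571531, plus strand): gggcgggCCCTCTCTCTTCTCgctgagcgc
Rplp2 (chr7:141447636-141447665, plus strand): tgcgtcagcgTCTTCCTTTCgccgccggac
Rpl28 (chr7:4792950-4792979, plus strand): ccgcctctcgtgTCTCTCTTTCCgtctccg
Rps6 (chr4:86857353-86857382, minus strand): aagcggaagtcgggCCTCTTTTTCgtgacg
Rps27 (chr3:90213634-90213663, minus strand): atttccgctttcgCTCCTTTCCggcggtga
Rps10 (chr17:27635230-27635259, minus strand): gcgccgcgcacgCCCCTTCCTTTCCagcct
Rps2 (chr17:24720048-24720077, plus strand): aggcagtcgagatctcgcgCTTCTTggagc
Rpsa (chr9:120127751-120127780, plus strand): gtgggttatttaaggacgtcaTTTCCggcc
Rplp0 (chr5:115559452-115559481, plus strand): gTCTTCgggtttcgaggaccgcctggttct

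The median difference from control was -1.22 (log2) in TAI over the 32 genes with such a run and -1.17 over the 26 without, and in TAI/IVIg it was -1.83 and -1.72.

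The 78 genes were lower in every irradiated mouse when summed. Their FPKM values added up to 9704, 15081 and 18527 in the control mice, to 4884, 6394 and 6537 in the TAI mice, and to 3063, 5885 and 3045 in the TAI/IVIg mice. The group means were 14438 ± 4446 (SD, n = 3), 5938 ± 916 and 3998 ± 1635, so the TAI mean was 41.1% and the TAI/IVIg mean 27.7% of the control mean. Every irradiated mouse was below every control mouse, and TAI/IVIg 2 was within the TAI range while TAI/IVIg 1 and 3 were below it. In reads, these genes took 1.602% to 3.10% of each control library, 0.806% to 1.07% of each TAI library and 0.489% to 0.970% of each TAI/IVIg library, at total depths of 16284531 to 18244739 reads.

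**Figure D1:**
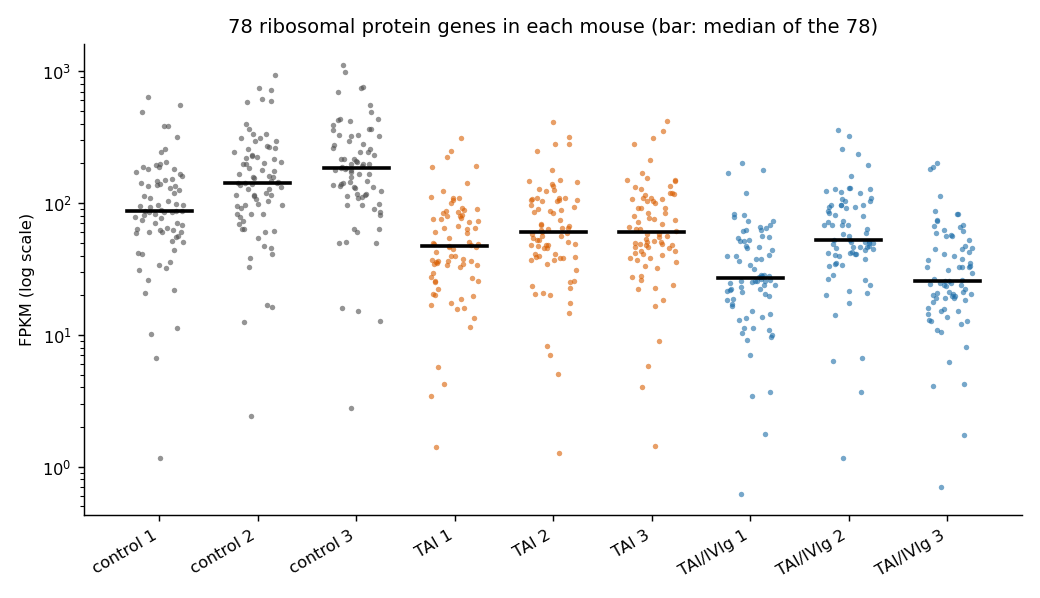
FPKM of the 78 genes (points, log axis) in each of the 9 mice, with the median of the 78 as a bar. The medians were 87.5, 142 and 183 FPKM in the control mice, 47.0, 59.8 and 59.8 in the TAI mice and 26.9, 52.7 and 25.6 in the TAI/IVIg mice, and the spread among the genes moved down together.

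The order of the genes was kept while their level fell. Rplp1 (mean over all mice 510.2 FPKM), Rps3a1 (423) and Rpl41 (386) were the highest of the 78, and Rps10 (1.45), Rpl13a (5.74) and Rps19bp1 (8.40) the lowest. Across the 78 genes, Spearman's rho of the FPKM values was 0.878 to 0.990 over the 36 pairs of mice, a description only, since the genes of a library share its depth. Rplp1 was 640.5, 943 and 1108 FPKM in the control mice, 312, 412 and 417 in the TAI mice and 201, 356 and 202 in the TAI/IVIg mice. It is a protein of the acidic stalk that recruits elongation factors, and all its irradiated mice were below all control mice.

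Irradiation alone was compared with control first. In TAI, 74 of the 78 genes were lower than in control and 0 were higher (limma on log2(FPKM + 1), Benjamini-Hochberg adjusted p under 0.05 over 13056 genes tested), where 26.1% of all genes tested were called lower and 8.81% higher. The median difference was -1.21 (log2), a level 2.31-fold lower, with quartiles of -1.32 and -1.13. The median over all genes tested was -0.24, so the ribosomal protein median lay 0.97 below it. In 75 of the 78 genes all TAI mice were below all control mice, which held for 38.0% of all genes tested. Rps10, Rps27rt, Rpl7a and Rps4x did not pass, and the first 3 of these had groups that overlapped. The count depended on single mice: it was 13 without TAI 1, 17 without control 3 and 25 without control 2. It was 42 when no filter on low values was used, while the median stayed between -1.46 and -0.99 with any mouse left out. The 26.1% of all genes tested belongs to the main fit and not to these alternatives.

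**Figure D2:**
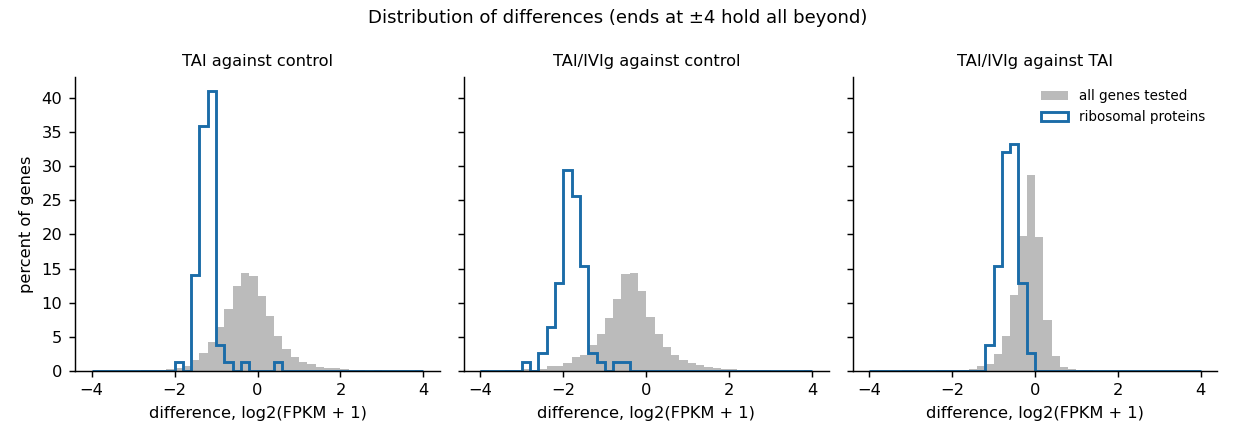
Percent of genes in each bin of 0.2 of the difference in log2(FPKM + 1), for all 13056 genes tested (grey) and the 78 ribosomal protein genes (blue line), in the 3 comparisons. The ribosomal protein medians were -1.21, -1.82 and -0.61 where those of all genes were -0.24, -0.39 and -0.13.

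Rps2 and Rpsa, both of the small subunit, had the largest differences from control in TAI. Rps2, which lies near the entry of the mRNA channel, was 319.8, 596 and 553 FPKM in the control mice, 111, 149 and 119.8 in the TAI mice and 45.7, 110.1 and 42.2 in the TAI/IVIg mice. The difference was -1.90 ± 0.37 (SE, adjusted p = 0.00604), so the TAI mean was 25.8% of the control mean. Rpsa, first known as a laminin receptor precursor, was 165, 268 and 323 FPKM in the control mice, 66.5, 85.1 and 91.1 in the TAI mice and 31.7, 80.6 and 32.7 in the TAI/IVIg mice. It differed by -1.59 ± 0.37 (adjusted p = 0.0122). Each group of Rpsa was apart from the control mice, and the TAI/IVIg 2 mouse was within the TAI range.

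The other large falls in TAI were in the large subunit. Rplp2, a partner of Rplp1 in the stalk, fell by 1.49 ± 0.27 (adjusted p = 0.00458), Rpl14 by 1.46 ± 0.41 (adjusted p = 0.0244) and Rpl36 by 1.45 ± 0.35 (adjusted p = 0.0131). Rplp2 was 99.1, 127 and 167 FPKM in the control mice, 35.9, 45.6 and 55.3 in the TAI mice and 26.4, 50.1 and 35.4 in the TAI/IVIg mice. All irradiated mice were below all control mice, and the TAI and TAI/IVIg mice overlapped. Rpl14, an RNA-binding protein on the face away from the small subunit, was 87.1, 174 and 198 FPKM in the control mice, 42.7, 58.1 and 56.1 in the TAI mice and 19.9, 49.1 and 17.7 in the TAI/IVIg mice. The 2 lower TAI/IVIg mice held less than the lowest TAI mouse.

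Some genes differed less or scattered more. Rpl28 was 135, 201 and 206 FPKM in the control mice, 88.7, 103 and 116 in the TAI mice and 77.9, 96.4 and 72.7 in the TAI/IVIg mice, a difference of -0.79 ± 0.20 in TAI (adjusted p = 0.0162), the smallest fall among large-subunit genes, and Rpl10, which joins the 60S subunit last, differed by -0.86 ± 0.23 (adjusted p = 0.0189). Rpl7a had a mean difference of -1.54 ± 0.57 that did not pass (adjusted p = 0.0635). Its values were 41.5, 113 and 132 FPKM in the control mice, 19.7, 25.8 and 46.1 in the TAI mice and 13.6, 45.04 and 12.8 in the TAI/IVIg mice, and TAI 3 and TAI/IVIg 2 were above control 1. Rps4x, which has no Y-linked partner in mice, was 187, 312 and 430.3 FPKM in the control mice, 109, 145 and 156 in the TAI mice and 65.2, 124 and 47.4 in the TAI/IVIg mice. All its irradiated mice were below all control mice, and it did not pass (adjusted p = 0.0508). Rps10 rested on 26 to 112 reads a library, the fewest of the 78.

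TAI/IVIg was compared with control next. Of the 78 genes, 77 were lower and 0 higher (adjusted p under 0.05 over 13056 genes), where 37.4% of all genes tested were called lower and 9.06% higher. The median difference was -1.82, a level 3.52-fold lower, against -0.39 over all genes tested (1.42 below it), and all TAI/IVIg mice were below all control mice in 75 genes (44.3% of all genes tested). Only Rps27rt did not pass. With any mouse left out, 74 to 77 genes were lower. The same control mice served both comparisons, so the 74 genes lower in both are not 2 separate observations.

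Rps2 was again the furthest from control, at -2.96 ± 0.37 (adjusted p = 7.3e-04), with a mean at 13.5% of control. Rpsa differed by -2.45 ± 0.37 (adjusted p = 0.00149), Rpl14 by -2.43 ± 0.41 (adjusted p = 0.00218), Rpl12, at the base of the stalk, by -2.39 ± 0.41 (adjusted p = 0.00228) and Rpl32 by -2.38 ± 0.41 (adjusted p = 0.00233). Rpl12 was 59.9, 97.5 and 132 FPKM in the control mice, 27.2, 38.9 and 35.9 in the TAI mice and 12.9, 33.01 and 10.8 in the TAI/IVIg mice, and TAI/IVIg 1 and 3 lay far below TAI/IVIg 2. At the other end on this scale were Rpl28 (-1.11 ± 0.20, adjusted p = 0.00281) and Rps10 (-0.75 ± 0.22, adjusted p = 0.0225). Rps10 had a control mean of 2.13 FPKM, where the 1 added before the logarithm understates a fall, so its place beside Rpl28 is not a ranking of fold changes.

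**Figure D3:**
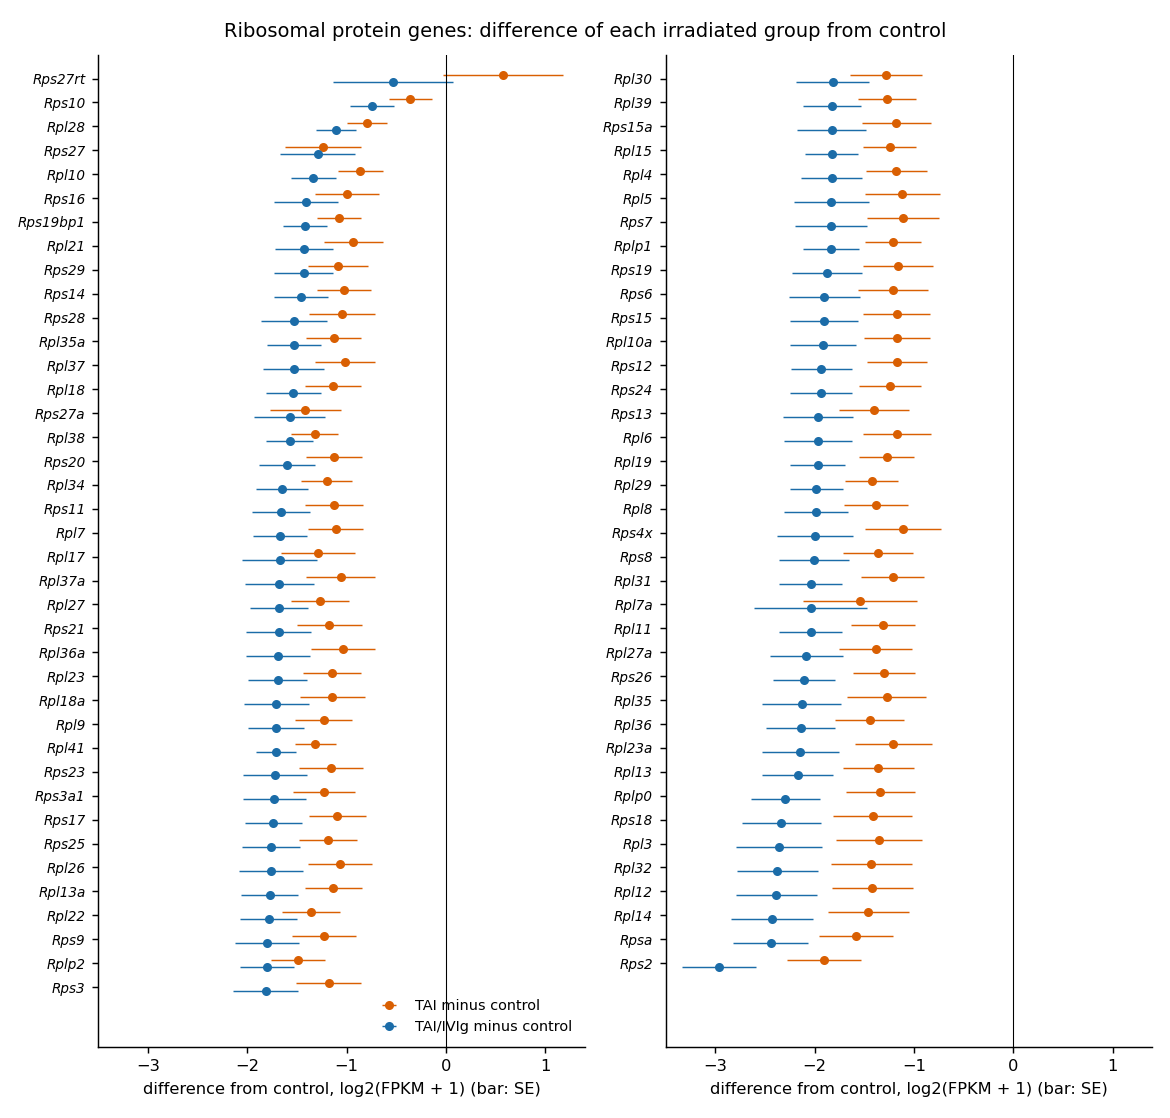
Difference of TAI (orange) and TAI/IVIg (blue) from control in log2(FPKM + 1) with its standard error, for 77 of the 78 genes in the order of the TAI/IVIg value. All genes drawn but Rps27rt lay left of 0 in both comparisons, and Rps2 lay furthest left in both.

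By subunit, 44 of 45 large-subunit genes and 29 of 31 small-subunit genes were lower in TAI, with medians of -1.25 and -1.18, and 45 of 45 and 31 of 31 in TAI/IVIg, with medians of -1.83 and -1.82. The differences in TAI ranged from -1.90 (Rps2) to -0.36 (Rps10) in the small subunit and from -1.54 to -0.79 in the large subunit. That of Rps10 is understated by the 1 added before the logarithm. Without Rps19bp1 and Rps27rt, 73 and 76 of 76 genes were lower. Of all genes tested, 26.1% were called lower in TAI and 37.4% in TAI/IVIg. Rps19bp1, whose sequence is found in no other gene, was 11.3, 16.3 and 15.1 FPKM in the control mice, 5.66, 7.09 and 5.77 in the TAI mice and 3.44, 6.68 and 4.24 in the TAI/IVIg mice and differed by -1.08 ± 0.22 in TAI (adjusted p = 0.00714).

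Members with well-known roles were named from a list. Rpl5 and Rpl11, which with 5S rRNA form the particle that binds Mdm2 when ribosome assembly stalls, differed by -1.12 ± 0.38 (adjusted p = 0.0463) and -1.31 ± 0.32 (adjusted p = 0.0142) in TAI. Rpl11 was 73.99, 120.0 and 142 FPKM in the control mice, 34.4, 47.8 and 48.04 in the TAI mice and 20.3, 40.6 and 20.03 in the TAI/IVIg mice. Its control and irradiated mice did not overlap, and 2 TAI/IVIg mice stood at about the same low level. Rplp0, the anchor of the stalk, was 383, 611 and 702 FPKM in the control mice, 189.5, 250.4 and 212 in the TAI mice and 80.7, 193 and 87.2 in the TAI/IVIg mice. Rps6, the substrate of S6 kinases, was 193, 331 and 436 FPKM in the control mice, 106, 140.0 and 149 in the TAI mice and 67.6, 129.8 and 59.2 in the TAI/IVIg mice. In both genes every irradiated mouse was below every control mouse, and the differences in TAI were -1.34 ± 0.35 (adjusted p = 0.0176) and -1.21 ± 0.36 (adjusted p = 0.0288).

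Rps19, the gene most often mutated in Diamond-Blackfan anaemia, was 30.98, 45.3 and 63.7 FPKM in the control mice, 16.1, 20.1 and 22.8 in the TAI mice and 9.08, 20.2 and 8.02 in the TAI/IVIg mice. Rps14, lost in the 5q- syndrome, fell by 1.03 in TAI (adjusted p = 0.0189) and by 1.46 in TAI/IVIg (adjusted p = 0.00308). Rps3, at the mRNA entry and also a DNA repair factor, fell by 1.18 (adjusted p = 0.0232) and 1.82 (adjusted p = 0.00281), and Rps27a, made as a fusion with ubiquitin, by 1.41 (adjusted p = 0.0162) and 1.57 (adjusted p = 0.00754). Among small or unusual large-subunit proteins, Rpl41, the shortest of all, fell by 1.31 (adjusted p = 0.00243) and 1.71 (adjusted p = 6.0e-04), Rpl39, of the exit tunnel, by 1.27 (adjusted p = 0.0113) and 1.83 (adjusted p = 0.00182), and Rpl13a, known for silencing messages under interferon gamma, by 1.13 (adjusted p = 0.016) and 1.77 (adjusted p = 0.00187). Rpl13a had 6.67 to 12.7 FPKM in control, and 41.1% of its windows of 50 bases were shared with other genes, mostly Gm45713.

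TAI/IVIg was then compared with TAI, the comparison that bears on the immunoglobulin. None of the 78 genes passed (0 of 78), by limma on log2(FPKM + 1) or on recovered reads with voom. In the fit on log2(FPKM + 1), 0 of 13056 genes passed in either direction (percent called 0). At an unadjusted p under 0.05, 16 of the 78 were lower and 0 higher, where 11.2% and 1.64% of all genes tested were. With a replicate block, 38 of the 78 were lower at that p and 0 passed the adjustment. All 78 had means below those in TAI, with a median of -0.61 against -0.13 over all genes tested. The groups were apart in 2 genes, Rps2 and Rps10 (16.1% of all genes tested were lower without overlap).

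The TAI/IVIg mice differed among themselves. TAI/IVIg 1 was below every TAI mouse in 77 of the 78 genes and TAI/IVIg 3 in 76, but TAI/IVIg 2 in 2, and it was between the lowest and highest TAI mouse in 71. Without TAI/IVIg 2 the median was -0.92 and 67 genes had an unadjusted p under 0.05, of which 0 passed the adjustment. Leaving out TAI/IVIg 1 gave -0.47 and leaving out TAI/IVIg 3 gave -0.45, with 0 genes under 0.05 in each case. In this comparison Rps2 had a difference of -1.06 ± 0.37 (unadjusted p = 0.0196, adjusted p = 0.359), Rplp0 -0.96 ± 0.35 (unadjusted p = 0.0223, adjusted p = 0.36) and Rpl31 -0.82 ± 0.32 (unadjusted p = 0.0292, adjusted p = 0.364). Rpl3, near the peptidyl transferase centre, stood at -1.01 ± 0.43 and Rps27rt at -1.11 ± 0.60. At the other end were Rps27 (-0.05 ± 0.38), Rps27a (-0.16 ± 0.36) and Rpl38 (-0.25 ± 0.24), a protein known for its part in the translation of Hox messages.

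**Figure D4:**
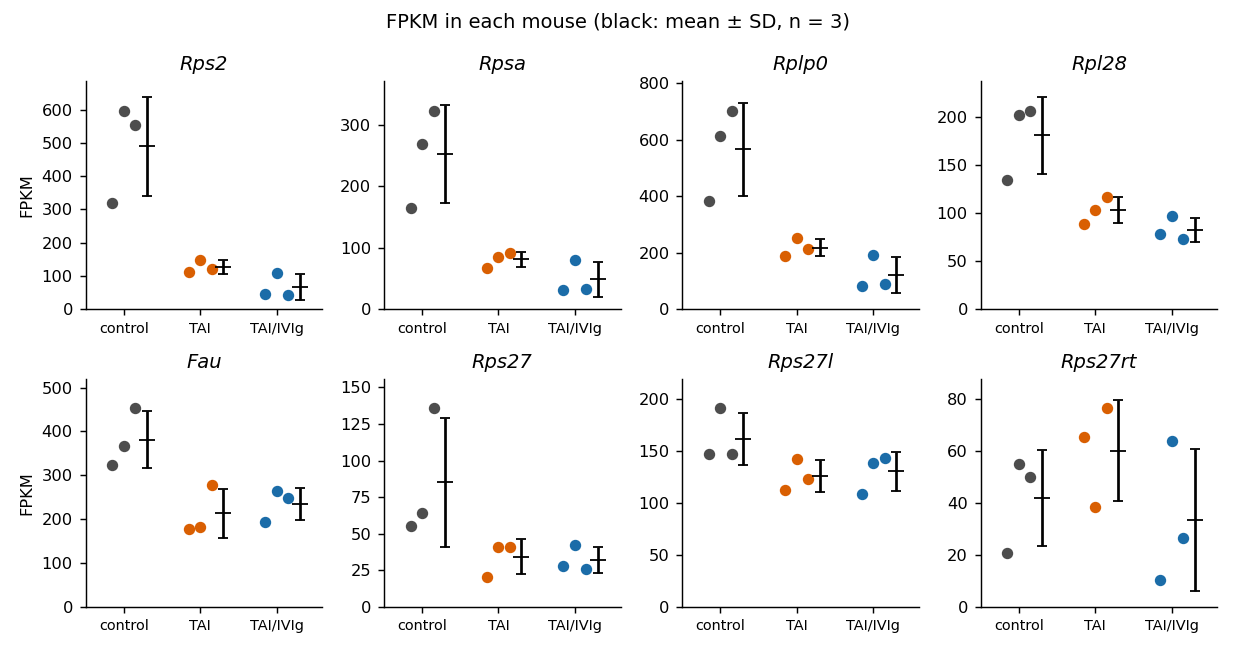
FPKM in each mouse (points) with mean ± SD (n = 3) for 8 genes, on axes that start at 0. Rps2, Rpsa, Rplp0 and Rpl28 were lower in all irradiated mice, TAI/IVIg 2 was the highest of its group in these 4, Rps27l kept 108 to 143 FPKM against 146 to 190.5 in control, and Rps27rt overlapped in all groups.

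Each gene was also set against its own family, by subtracting from every library the median log2 value of the 78 genes and fitting again. Relative to that median, Rps10 and Rps27rt were higher in TAI (2 of 78, and 0 lower) and in TAI/IVIg, where Rps2 was lower (1 of 78, -1.004, adjusted p = 0.0239). Of all genes tested, 60.5% were called higher and 0.544% lower in TAI on this scale, and 87.4% and 0.483% in TAI/IVIg. Rps10 and Rps27rt rested on 26 to 112 and 70 to 520 reads a library, and Rps2 shared 56.4% of its windows of 50 bases with other genes. In a gene as low as Rps10 the 1 added before the logarithm understates a fall, which raises it against the family on this scale. By voom on the reads with total library sizes, 6 genes stood above the family and 6 below it in TAI/IVIg. Between TAI/IVIg and TAI, 0 of 78 passed on this scale, and 0 of all genes tested.

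Many of these genes have copies elsewhere in the genome, and how reads that fit 2 places were counted is not given in the sources used here. A median of 38.4% of the 50-base windows of a member's transcripts was also found in transcripts of other genes, from 0% in the lowest to 95.1% in the highest. A limit of 30% was set after seeing the data. Called lower were 26.1% of all genes tested in TAI and 37.4% in TAI/IVIg. Of the 28 genes with under 30% of windows shared, 28 were lower in TAI and 28 in TAI/IVIg, with medians of -1.18 and -1.71, and of the 50 others 46 and 49 were, with medians of -1.21 and -1.91.

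Rows named as pseudogenes of these genes went down too. Of 68 such rows tested, 44 were lower and 0 higher in TAI and 57 and 0 in TAI/IVIg, with medians of -1.02 and -1.41, and their values summed to 1227 to 2353 FPKM in control, 625 to 898 in TAI and 439 to 767 in TAI/IVIg. The shares of all genes tested called lower were 26.1% in TAI and 37.4% in TAI/IVIg. Rps10-ps2 had 81.2 to 192 FPKM in control, and Rps10 itself 1.17 to 2.80. Rps10 shared 30.8% of its windows with other genes, and 24.9% with RPS10-NUDT3, a protein-coding gene. Rpl24, which did not pass the filter, had 6 to 28 reads a library. It shared 81.7% of its windows with other genes, and 69.4% with Gm28037, a processed transcript. Neither RPS10-NUDT3 nor Gm28037 had FPKM values. Where the sequence is shared, reads of the genes cannot be told apart. The level of a low gene such as Rps10 or Rpl24 is thus uncertain. What part Rps10-ps2 had in the low values of Rps10 was not tested.

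Rps27 has close relatives and shows how they differed. The Rps27 protein has a zinc finger and sits on the small subunit, Rps27l is a paralogue known as a target of p53, and Rps27rt encodes the same 252 coding bases as Rps27. The coding sequences of Rps27 and Rps27l are given below 5′ to 3′, without the stop codon, from GENCODE M21 transcripts; capitals in Rps27l mark the 60 bases that differ from Rps27, an identity of 76.2%.
Rps27 (gene at chr3:90212522-90213651, GRCm38, minus strand): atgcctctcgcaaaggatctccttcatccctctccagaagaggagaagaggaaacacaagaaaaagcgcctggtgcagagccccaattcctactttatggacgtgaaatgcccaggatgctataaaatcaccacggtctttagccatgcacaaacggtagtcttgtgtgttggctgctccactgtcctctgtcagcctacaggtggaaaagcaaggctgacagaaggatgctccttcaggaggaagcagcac
Rps27l (gene at chr9:66946086-66949516, GRCm38, plus strand): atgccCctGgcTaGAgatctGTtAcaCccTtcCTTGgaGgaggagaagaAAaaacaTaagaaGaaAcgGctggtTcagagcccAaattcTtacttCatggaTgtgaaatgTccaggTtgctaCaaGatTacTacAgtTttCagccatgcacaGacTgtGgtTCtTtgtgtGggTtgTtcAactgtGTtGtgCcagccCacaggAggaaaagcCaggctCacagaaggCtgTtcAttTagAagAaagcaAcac

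Rps27 was 55.4, 64.1 and 136 FPKM in the control mice, 20.5, 40.9 and 41.2 in the TAI mice and 28.2, 42.3 and 26.01 in the TAI/IVIg mice. It fell by 1.24 ± 0.38 in TAI (adjusted p = 0.0339) and by 1.29 ± 0.38 in TAI/IVIg (adjusted p = 0.0224), and all irradiated mice were below all control mice. Rps27l was 147, 190.5 and 146 FPKM in the control mice, 112, 142 and 123 in the TAI mice and 108, 138 and 143 in the TAI/IVIg mice. Its difference from control was -0.35 ± 0.17 in TAI (adjusted p = 0.137) and -0.31 ± 0.17 in TAI/IVIg (adjusted p = 0.163), the latter 0.18 when library medians were set equal, and neither passed. Rps27rt was 20.6, 54.8 and 49.9 FPKM in the control mice, 65.1, 38.4 and 76.2 in the TAI mice and 10.4, 63.6 and 26.3 in the TAI/IVIg mice. It shared 91.1% of its windows with other genes, mostly Rps27, and its mice overlapped in all groups. The difference between Rps27 and Rps27l was not tested.

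Further proteins of the ribosome have other symbols. Fau, a ubiquitin-like protein fused to Rps30, was 324, 367 and 452 FPKM in the control mice, 178, 183 and 278 in the TAI mice and 193, 263 and 248 in the TAI/IVIg mice. It fell by 0.85 ± 0.22 in TAI (adjusted p = 0.0175) and by 0.69 ± 0.22 in TAI/IVIg (adjusted p = 0.0299), while the members' medians were -1.21 and -1.82. Rack1, a scaffold on the small subunit, fell by 1.21 ± 0.36 (adjusted p = 0.0316) and 2.02 ± 0.36 (adjusted p = 0.00281). Of the like genes, Rpl22l1, whose partner Rpl22 was 43.96, 63.1 and 81.1 FPKM in the control mice, 20.2, 23.4 and 26.1 in the TAI mice and 13.4, 26.4 and 13.7 in the TAI/IVIg mice, fell by 1.22 ± 0.19 in TAI (adjusted p = 0.00235), against 1.36 ± 0.29 for Rpl22 (adjusted p = 0.00837). Rpl7l1 fell by 1.00 ± 0.21 (adjusted p = 0.0076), Rps4l differed by -0.49 ± 0.21 without passing (adjusted p = 0.104), and Rpl36al, Rpl39l and Rpl3l were under 1 FPKM in every mouse.

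Genes that make or use the ribosome were counted from fixed lists, to be read beside the shares of all genes tested that were called lower (26.1% in TAI and 37.4% in TAI/IVIg) or higher (8.81% and 9.06%). The lists share a few genes, such as Npm1 and Polr1a. Of 23 translation factors and other genes, many with TOP messages, 14 were lower and 0 higher in TAI and 20 and 0 in TAI/IVIg. The medians were -0.96 and -1.37. Npm1, Hnrnpa1, Nap1l1 and Cct4 were among the others. Eef1a1 brings tRNA to the ribosome. It had 996, 1559.8 and 1854 FPKM in control, 630.3, 799.9 and 680.0 in TAI and 367, 720.3 and 349 in TAI/IVIg. Of 85 nucleolar assembly genes tested, 43 were lower in TAI and 81 in TAI/IVIg, where 2, Sbds and Eif6, were higher. Both act on the 60S subunit at its last step, and they rose by 0.43 ± 0.12 (adjusted p = 0.016) and 0.36 ± 0.12 (adjusted p = 0.0317). Ncl, Fbl and Nhp2, which work on pre-rRNA, fell in TAI/IVIg by 2.18 (adjusted p = 0.00206), 2.14 (adjusted p = 0.00283) and 2.25 (adjusted p = 0.00314). Of 20 genes of RNA polymerase I, 12 were lower in TAI and 18 in TAI/IVIg and 0 were higher in either, with Tcof1, a nucleolar factor of rDNA transcription, at -1.85 ± 0.34 in TAI/IVIg (adjusted p = 0.00308). Of 8 chaperones of single ribosomal proteins, 4 and 8 were lower, with Grwd1, which escorts Rpl3, at -1.93 ± 0.27 (adjusted p = 0.00109).

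The mitochondrial ribosome, a separate machine with its own proteins, was the list nearest in size. In TAI 71 of its 77 genes were lower and 0 higher, with a median of -1.06, beside -1.21 for the cytoplasmic genes, and in TAI/IVIg 69 of 77 were, with a median of -1.16, beside -1.82. Between TAI/IVIg and TAI its median was -0.08 and that of the cytoplasmic genes -0.61, and no test set the lists against each other. The median mitochondrial ribosome gene had 9.66, 13.6 and 13.2 FPKM in the control mice, against 87.5, 142 and 183 for the cytoplasmic genes. At the lower level the 1 added before the logarithm understates a fall more. The list medians are thus not a ranking of fold changes. Summed, the mitochondrial list stood at 1020.3, 1382 and 1281 FPKM in the control mice and 495, 591 and 563 in the TAI mice. In the TAI/IVIg mice it stood at 451, 658 and 618, so TAI/IVIg 2 and 3 were above the highest TAI mouse.

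**Figure D5:**
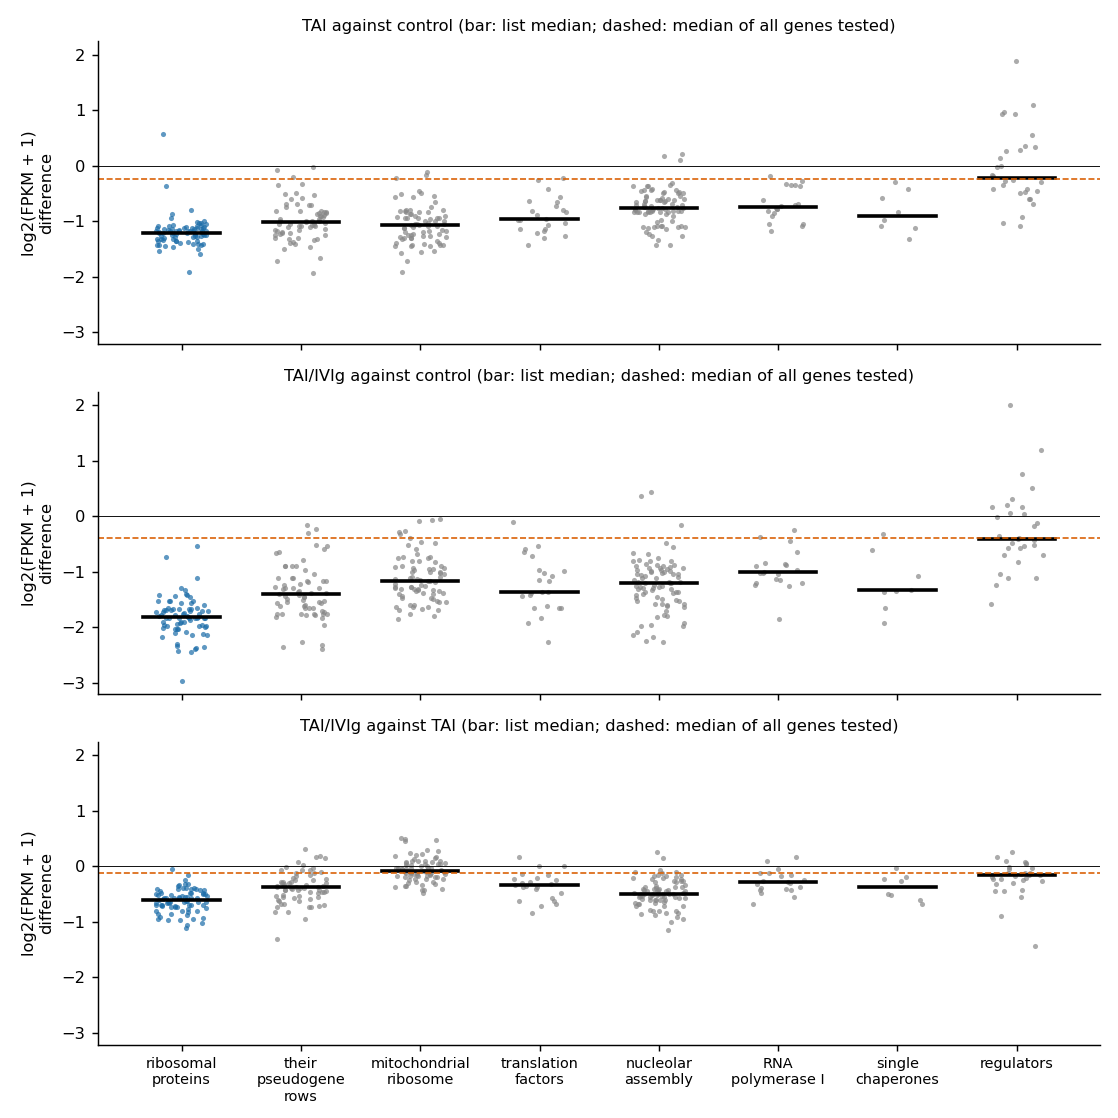
Difference in log2(FPKM + 1) for each tested gene (points) of 8 lists, with list medians as bars and the median of all genes tested as a dashed line, in the 3 comparisons. On this scale the ribosomal protein genes (blue) had the lowest list median in each, and the regulators lay around the median of all genes. The 1 added before the logarithm understates falls in low lists, such as the nucleolar genes and the pseudogene rows. This order is thus not a ranking of fold changes.

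The regulators of these messages were called in both directions, as were all genes tested (26.1% lower and 8.81% higher in TAI, 37.4% and 9.06% in TAI/IVIg). Of 30 tested, 8 were lower and 5 higher in TAI and 14 and 4 in TAI/IVIg, with medians of -0.22 and -0.41, about those of all genes tested. Larp1, which binds TOP messages, was 19.6, 27.6 and 27.4 FPKM in the control mice, 10.7, 13.8 and 10.3 in the TAI mice and 7.08, 10.4 and 5.80 in the TAI/IVIg mice. It fell by 1.03 ± 0.22 in TAI (adjusted p = 0.00878) and 1.58 ± 0.22 in TAI/IVIg (adjusted p = 0.00107). Mxd1, which opposes Myc at shared sites, rose by 1.89 ± 0.26 (adjusted p = 0.00161) and 1.99 ± 0.26 (adjusted p = 8.4e-04), from 48.3 to 78.7 FPKM in control to 171 to 339 in the irradiated mice. Max, Eif4ebp1, an inhibitor of cap binding, and Sesn2, an inhibitor of mTORC1, were also higher in both, and Mdm2 passed in TAI. Lower in both were Larp4, Eif4e, Rheb, Rps6kb2, Mlst8, Nemf and Hbs1l. Mtor, Rps6kb1, Tsc1, Tsc2, Trp53 and Ltn1 were lower in TAI/IVIg and did not pass in TAI. Compared directly between TAI/IVIg and TAI, 0 of the 30 regulators were called in either direction, as were 0 of all genes tested. Myc was 3.05, 6.75 and 9.59 FPKM in the control mice, 7.39, 11.7 and 5.22 in the TAI mice and 1.51, 5.57 and 1.01 in the TAI/IVIg mice. Its mice overlapped in every comparison, with adjusted p-values of 0.625 in TAI and 0.0959 in TAI/IVIg. Cdkn1a, Ddit4, Deptor, Eif4ebp2, Gabpa, Maf1, Map3k20, Mxd4, Pelo and Rptor passed in neither comparison, and Mycn stayed under 1 FPKM.

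Some markers of cell types differed between the groups too. Their counts are to be read beside the shares of all genes tested that were called. These shares were 26.1% lower and 8.81% higher in TAI, and 37.4% and 9.06% in TAI/IVIg. All 12 crypt proliferation markers were lower in TAI and in TAI/IVIg. They summed to 66.3, 158 and 153 FPKM in the control mice, 26.7, 35.7 and 30.7 in the TAI mice and 20.1, 33.7 and 19.8 in the TAI/IVIg mice. Control 1, the control mouse with the lowest ribosomal protein sum, was also the lowest here. Control 3, the highest in that sum, was below control 2 here. It was the highest of the controls in T cell (56.2 FPKM), myeloid (236), B and plasma cell and smooth muscle markers. TAI/IVIg 2 was the highest of its group here and in Paneth, goblet, T cell, myeloid, endothelium and erythrocyte markers. In the other marker sets TAI/IVIg 2 was not the highest. Of 8 enterocyte markers 6 were higher in TAI and 7 in TAI/IVIg, at 11892 to 19442 FPKM in control, 28946 to 48631 in TAI and 44532 to 47106 in TAI/IVIg. Stem cell markers (4 genes) summed to 13.6 to 70.2, 6.99 to 8.64 and 2.14 to 6.66 FPKM, smooth muscle markers (6 genes) to 536 to 765 in TAI and 113 to 554 in TAI/IVIg, and pancreas markers were at or near 0. Of 6 stroma markers 0 were called in TAI and 4 were lower in TAI/IVIg, at 73.7 to 94.2 and 21.1 to 47.9 FPKM in all. Of 5 goblet cell markers 3 were higher in TAI and 1 was lower in TAI/IVIg, at 1862 to 2584 FPKM in control, 3364.5 to 4224 in TAI and 1929 to 3302 in TAI/IVIg. Of 5 Paneth cell markers 0 were called in TAI and 1 was lower in TAI/IVIg, at 802 to 3861, 1439 to 3970.4 and 116 to 1084 FPKM. The share of FPKM in mitochondrial transcripts was 6.81% to 8.12%, 11.2% to 13.2% and 11.5% to 16.9%. What part these had in the ribosomal protein levels was not tested.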

How the data were processed

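Jejunal RNA of 9 mice was analysed, 3 each in the control, TAI and TAI/IVIg groups. The labels gave each mouse its group and number, and all mice 1 batch. The authors deposited FPKM values for 31685 genes, a column per mouse, not pooled. The submitters' processing notes name FastQC, Trimmomatic, STAR, featureCounts and DESeq2 and the builds mm10 and GRCm38; their settings, the annotation and the treatment of multimapping reads are not given in the sources used here. Symbols were matched for 31146 identifiers. All 9 columns were used (0 left out).

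Reads were recovered from the FPKM values by exon length (GENCODE M21): 96.6% of genes, the 78 ribosomal protein genes among them, gave whole reads (within 0.01), and the others did so with another whole length. Totals were 16284531 to 18244739, and intervals from reads would cover counting error only. Tests covered the 13056 genes that reached 1 FPKM in 3 or more mice, on log2(FPKM + 1), with limma 3.58.1 in R 4.3.3, a term per group, all 9 mice and a trended prior, with Benjamini-Hochberg adjustment per comparison and 0.05 as the threshold. Fold changes on this scale understate low genes. A second fit had each library's median of the ribosomal protein genes subtracted. The fit was tested on simulated reads. Where the labels do not say that mice are separate litters or cages, p-values measure the spread between these mice.

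Members, lists and tests were chosen with earlier results of these data known. Named members are the largest called falls and rises without overlap per comparison (or the smallest p where none passed), those furthest from the family's median, the highest and lowest means, and a list of members with known roles. Replicate numbers are shared by the groups. Deviations from group means of same-numbered control and TAI mice correlated at 0.241 to 0.308, and of TAI/IVIg mice with same-numbered mice at -0.296 to 0.201. Control and TAI mice of unlike numbers gave -0.336 to 0.146. The highest value of all was of unlike numbers, 0.408 for control 3 with TAI/IVIg 2. With 3 mice a group these values do not establish that the numbers pair the mice, and a replicate block was an alternative. The values of 2 genes are not reported here. Other alternatives were the pseudocount, the filter, the scaling, the trend, voom on recovered reads and each mouse left out. Sequences are from RefSeq (GRCm38.p6) and GENCODE M21, and figures were drawn with matplotlib.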

Additional observations from a re-analysis of the deposited data

How the results depend on the processing

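The median difference of the 78 ribosomal protein genes kept its sign in all 3 comparisons under every alternative run. With a mouse left out it ranged from -1.46 to -0.99 in TAI, from -2.10 to -1.58 in TAI/IVIg and from -0.92 to -0.45 between TAI/IVIg and TAI. The count of lower genes in TAI was 42 with no filter on low values, 59 with quantile normalization, 61 by voom on recovered reads with median-ratio library sizes, 66 with library medians set equal, and 13 to 77 with a mouse left out (13 without TAI 1, 17 without control 3 and 25 without control 2). That in TAI/IVIg was 74 to 77 under every alternative fitted to the whole family. The shares of all genes tested that passed under these alternatives are not given here. Setting library medians equal moved the median of all genes tested to 0.05 in TAI and 0.10 in TAI/IVIg, a shift common to all genes of a library. With a replicate block 76, 77 and 0 genes were lower in the 3 comparisons, and no count of adjusted calls moved by over 1.5 times, while 38 genes in place of 16 had an unadjusted p under 0.05 between TAI/IVIg and TAI.

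Against the family median, the genes higher in TAI were 1 with a pseudocount of 0.1, with a mean FPKM of at least 5 and by voom with either library size (where total sizes gave 1 lower), and 1 to 2 with a mouse left out. In TAI/IVIg, voom gave 6 higher and 6 lower with total and 4 higher and 2 lower with median-ratio sizes, 0 were lower when the TAI mice were kept out of the model, and 0 to 1 were lower with a mouse left out. Alternatives chosen after seeing the data gave 1 higher in TAI and 1 higher and 1 lower in TAI/IVIg, each against control, without Rps19bp1 and Rps27rt, and 0 higher and 0 lower among the genes with under 30% of windows shared.

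Signs turned for small differences that had not passed. Against control in TAI/IVIg, Rps4l and Rps27l stood at 0.16 and 0.18 with library medians equal and at 0.14 and 0.17 by voom with median-ratio sizes, and Rps27rt ranged from -1.16 to 0.090 with a mouse left out. Between TAI/IVIg and TAI, library medians set equal gave 0.15 for Rps27, 0.046 for Rps27a and 0.11 for Rpl22l1, voom with median-ratio sizes gave 0.13 for Rps27, 0.015 for Rps27a and 0.074 for Rpl22l1, and quantile normalization gave 0.011 for Rpl22l1. With a mouse left out the ranges were -0.37 to 0.11 (Rps27), -0.59 to 0.13 (Rps27a), -0.22 to 0.037 (Rpl22l1) and -0.035 to 0.17 (Rps27l). The causes were not tested. Rps10 had the fewest reads, 26 to 112 a library.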
